A study of Mus musculus with 6 samples.

Results

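Genes of the imprinted Prader-Willi and Angelman region of mouse chromosome 7 were examined for 3 repressive histone marks. The genes were Snrpn, Ndn, Magel2, Mkrn3, Peg12, Ube3a and Atp10a, which are 7 of the 37310 annotated genes. Each was taken from its annotated start to its end (NCBIM37) with 10 kb added on both sides, and the 2 kb pieces of the genome (tiles) that overlapped this region were read. Together they covered 287 of 1327469 tiles.

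H3K9me2, H3K27me3 and H3K9me3 had been measured by chromatin immunoprecipitation and sequencing (ChIP-seq) in mouse embryonic stem cells (ESCs) of 2 genotypes. The control cells lacked Dicer, the enzyme that makes small RNAs (Dicer KO, genotype Dicer -/-). The other cells lacked Dicer and also Dnmt1, the enzyme that copies DNA methylation onto new DNA strands (Dicer KO/Dnmt1 cKO, genotype Dicer/Dnmt1 -/-). All cells therefore lacked Dicer, and the comparison was that of Dnmt1 deletion within Dicer KO cells. The labels name the background strain E14 for all libraries, whereas the methods describe C57BL/6 ESCs with a loxP-flanked Dnmt1 gene, deleted by a tamoxifen-inducible Cre. The Dicer KO cells had been made from these with CRISPR and grown from single cells, so the cells behind each genotype may descend from 1 clone. The labels of these libraries give no time after Dnmt1 deletion.

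There was 1 library for each mark and genotype. The values therefore compare single libraries, without any measure of the spread between cultures and without tests. The intervals in parentheses are 95% intervals for counting error alone, and reads were not known to be independent molecules. The 6 libraries held 16834940 to 27162045 reads, with a median of 13 to 18 reads per tile, and 6.10% to 6.89% of tiles held none. A level is the number of reads per tile relative to the mean of that library over all tiles, so that 1 is the genome mean. A change is the log2 ratio of Dicer KO/Dnmt1 cKO over Dicer KO, each relative to its library total. H3K27me3, which marks silent developmental genes, stood at a level of 0.171 to 2.76 at the start sites of 6 ESC genes in Dicer KO and at 2.81 to 8.04 at those of 6 genes of other lineages. In Dicer KO/Dnmt1 cKO these ranges were 0.250 to 2.62 and 2.68 to 5.74, so the starts of the lineage genes stood above those of the ESC genes in both genotypes. Among the ESC genes Esrrb was the highest in both, and it lay only slightly below the lowest lineage gene. Over the Dnmt1 gene itself the changes were 0.58 (0.24 to 0.93) for H3K9me2, 0.28 (-0.08 to 0.65) for H3K27me3 and -0.17 (-0.49 to 0.15) for H3K9me3. These are values of the marks over the gene and do not check its deletion.

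Genomic imprinting is the expression of a gene from the chromosome of only 1 parent. It depends on DNA methylation that is set on 1 parental chromosome in the germ line and copied thereafter at each cell division. In this region the controlling element lies at the start of Snrpn and is methylated on the maternal chromosome. Snrpn, Ndn, Magel2, Mkrn3 and Peg12 are expressed from the paternal chromosome, while Ube3a is expressed from the maternal chromosome in neurons. At many imprinted control elements the protein ZFP57 binds the hexamer TGCCGC when it is methylated and recruits the machinery that places H3K9me3. Reads of both parental chromosomes were counted together here.

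The tile with most H3K9me3 at Snrpn was chr7:67148001-67150000. It ended 42 bases downstream of the inner Snrpn start site at position 67150042, that of transcript ENSMUST00000059305.9. The tile held the last 79 bases of that transcript's first exon, and its remaining bases lay in introns. It contained 53 CpG sites, against a median of 14 over 1278688 tiles of known sequence, and 8 copies of the hexamer TGCCGC counted on both strands (GCGGCA on the other). Of all those tiles 10.9% held at least 1 copy and 38 tiles (0.00297%) held at least 8. Another of these 38 tiles lay in the Atp10a region, at chr7:66080001-66082000. The stretches of both tiles in which the hexamers lie densest are given because the marks over them differed. The Snrpn stretch (chr7:67149193-67149492, minus strand, the strand of the gene) lies in the intron after the first exon, 550 to 849 bases from the inner start. The Atp10a stretch (chr7:66081423-66081670, plus strand) overlaps no exon of Atp10a over its hexamers. Capitals mark the hexamer on either strand, and a hexamer is a match of letters, not a bound site.
Snrpn: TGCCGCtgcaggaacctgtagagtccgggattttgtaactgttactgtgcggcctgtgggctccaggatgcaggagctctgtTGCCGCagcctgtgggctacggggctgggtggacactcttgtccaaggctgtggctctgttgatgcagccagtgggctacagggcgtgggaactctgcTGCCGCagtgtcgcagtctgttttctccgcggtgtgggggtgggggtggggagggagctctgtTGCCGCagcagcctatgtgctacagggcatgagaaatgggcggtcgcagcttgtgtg
Atp10a: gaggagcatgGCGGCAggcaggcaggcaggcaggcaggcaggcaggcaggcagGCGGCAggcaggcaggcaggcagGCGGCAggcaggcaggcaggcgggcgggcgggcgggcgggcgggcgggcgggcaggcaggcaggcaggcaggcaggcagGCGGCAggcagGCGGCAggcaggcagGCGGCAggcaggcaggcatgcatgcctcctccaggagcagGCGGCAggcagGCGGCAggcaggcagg
The Snrpn stretch held 4 hexamers, all as TGCCGC, some of them with similar bases around them. The Atp10a stretch held 8, all as GCGGCA within a run of GGCA repeats.

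H3K9me3 at the Snrpn tile fell from 84 reads in Dicer KO to 50 reads in Dicer KO/Dnmt1 cKO. The level was 6.14 (4.90 to 7.60) in Dicer KO and 3.51 (2.60 to 4.62) in Dicer KO/Dnmt1 cKO, and the intervals did not overlap. The change was -0.81 (-1.34 to -0.29). The tile remained above the genome mean in both genotypes and was the highest of the Snrpn region in either library alone. Its height is set by the rule that chose it and is a description. H3K9me2 had 3 reads in the tile in each genotype and H3K27me3 had 4, so that a change of those marks was not detectable at this depth. The Atp10a tile with as many hexamers held 11 H3K9me3 reads in Dicer KO and 7 in Dicer KO/Dnmt1 cKO, levels of 0.80 and 0.49. Over the 38 tiles with at least 8 hexamers the median H3K9me3 level, as the mean of both genotypes, was 0.74. A level above 3 was found in 9 of them, against 0.433% of all tiles, and a level below 1 in 24. These 9 include the Snrpn tile itself, whose height is set by the rule.

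The 10 kb on both sides of the Snrpn tile, a window set by distance after the values were seen, held 10 tiles. Their H3K9me3 reads were 271 in Dicer KO and 272 in Dicer KO/Dnmt1 cKO, levels of 1.98 and 1.91, with a change of -0.06 (-0.30 to 0.19). The change of the tile minus that of these 10 tiles was -0.75 (-1.31 to -0.19). The 10 tiles were not alike. The directly adjoining tiles held 32 and 39 reads on the downstream side and 39 and 44 upstream, with changes of 0.23 (-0.49 to 0.95) and 0.11 (-0.54 to 0.77). Tiles farther out also fell, namely chr7:67156001-67158000 from 31 to 17 reads (-0.93, -1.87 to -0.03) and chr7:67138001-67140000 from 33 to 17 (-1.02, -1.95 to -0.13). These tiles were picked for their fall, and others of the 10 rose, such as chr7:67152001-67154000 from 31 to 40 reads (0.31, -0.41 to 1.03). Summed with the tile on either side, the change of the Snrpn tile was -0.28 (-0.63 to 0.06). The 79 tiles of the Snrpn region beyond this window changed by -0.21 (-0.34 to -0.09), from 1176 to 1057 reads. H3K9me3 was thus lower beyond the window as well. Both other marks were low around the start. Over the 10 tiles H3K27me3 had 100 and 71 reads, levels of 0.49 and 0.44, with a change of -0.14 (-0.60 to 0.31). H3K9me2 had 61 and 82 reads, levels of 0.48 and 0.53, with a change of 0.14 (-0.35 to 0.64). The plot of the tiles around the inner start shows the H3K9me3 summit over a trough of both other marks.

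**Figure D1:**
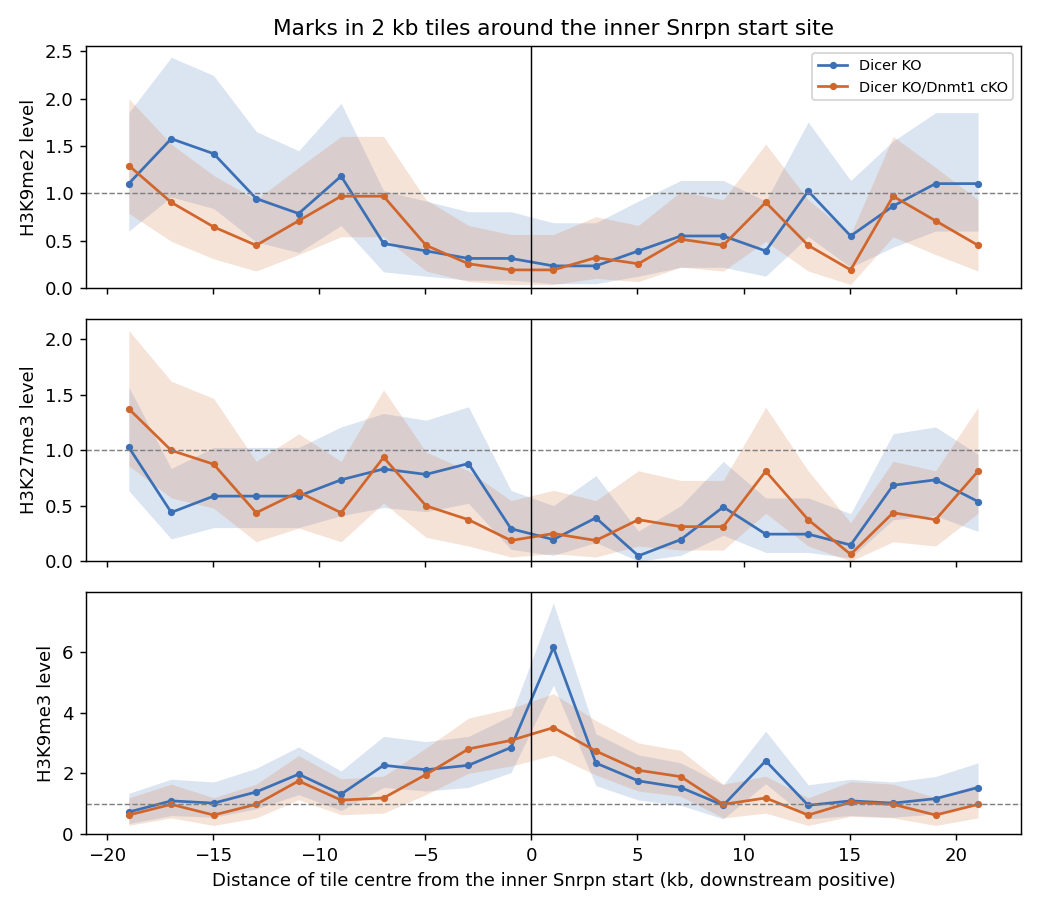
Level of H3K9me2, H3K27me3 and H3K9me3 (reads in the tile relative to the genome mean, y axes) in 2 kb tiles against the distance of the tile's centre from the inner Snrpn start site in kb (x axis, downstream positive), for the single library of each genotype. Shading is the 95% counting interval and the dashed line the genome mean. The H3K9me3 summit downstream of the start stood at 6.14 in Dicer KO and 3.51 in Dicer KO/Dnmt1 cKO, whereas H3K9me2 and H3K27me3 lay below the genome mean in the tiles next to the start.

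The fall at the Snrpn tile was set beside the tile with most H3K9me3 of other imprinted genes with a germ-line mark, of which 16 were found in the annotation. A fall of this kind over a list of imprinted genes was known from earlier work on these data, and so the list is no independent support. The highest tile was lower in Dicer KO/Dnmt1 cKO in 15 of the 16 genes, with a median change of -0.63 and a range from -1.02 to 0.16. Over all genes treated alike the median was -0.06 and 52.0% were lower, and the lowest 5% began at -0.82. The highest tiles of all genes had a median level of 1.51, against 4.82 for Snrpn's tile as the mean of both genotypes. They were thus not matched for level, and most had a wider counting error. A change of 2-fold or more was met by 4.9% of all genes and by 1 of the 16, and Snrpn did not reach it. The fall was larger than at Snrpn in 3 genes. These were Plagl1, a zinc-finger transcription factor gene (-1.02, 76 to 39 reads), Nnat, a neuronal membrane protein gene (-0.99, 95 to 50 reads), and Mest, a paternally expressed gene that promotes growth (-0.84, 96 to 56 reads). Rasgrf1 was higher (0.16, -0.51 to 0.83), with 37 and 43 reads in a tile of only 8 CpG sites. Mcts2, which counts among the 15, had 13 reads in both libraries (-0.06, -1.29 to 1.17). A hexamer was present in 14 of the 16 tiles, but not in those of Rasgrf1 and Slc38a4. A tile chosen by its reads need not hold the germ-line control element of its gene. By level, Snrpn's tile was exceeded by 10 of the 16 and ranked 267 among the highest tiles of 22380 protein-coding genes.

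The other 6 genes of the region had no such tile. Their highest H3K9me3 tiles ranked from 5882 (Atp10a) to 18765 (Ndn) among 22380 genes, and their changes lay between -0.38 and 0.31 with intervals that all included 0. At Mkrn3, which encodes a RING-finger protein whose loss brings early puberty in humans, this was the tile of the start site. It held 77 CpG sites and 3 hexamers, but only 22 H3K9me3 reads in Dicer KO and 18 in Dicer KO/Dnmt1 cKO. At Ube3a, the ubiquitin ligase lost in Angelman syndrome, the highest tile held 17 and 22 reads. The plot of the highest tiles shows the gap between Snrpn and the other genes of the region.

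**Figure D2:**
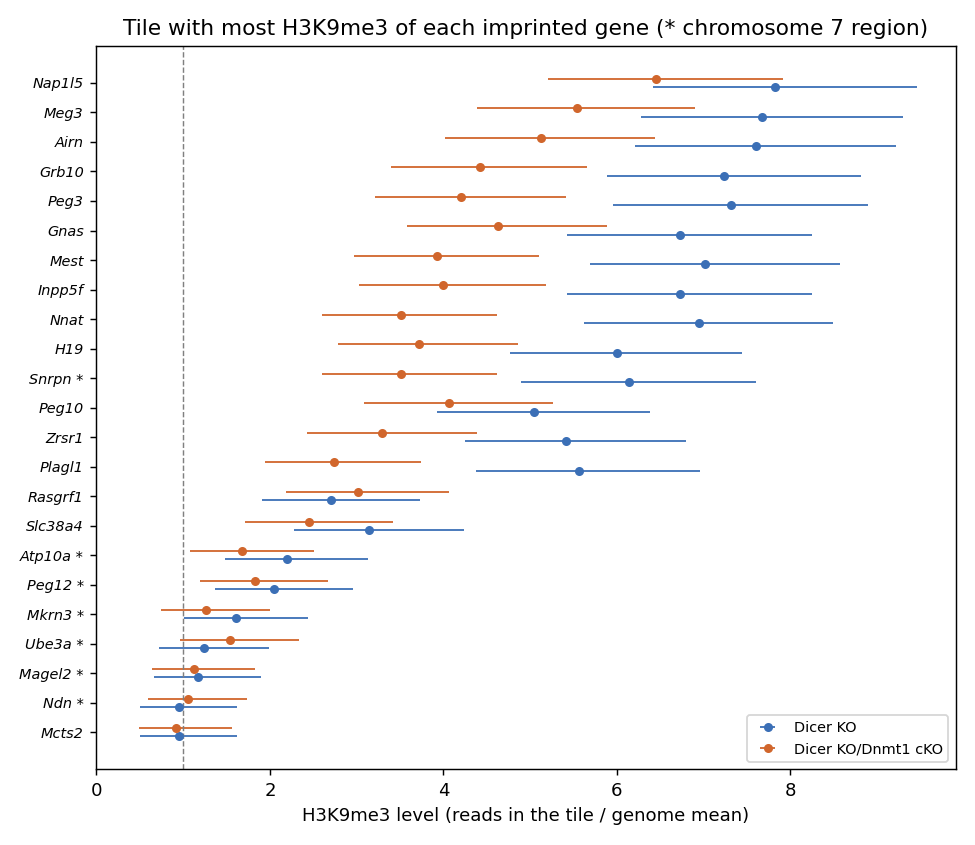
H3K9me3 level (reads relative to the genome mean, x axis) in the tile with most H3K9me3 of each gene, 1 library per genotype. The y axis lists the 7 genes of the region (asterisk) and 16 imprinted genes outside it, sorted by the mean level of both genotypes. Bars are 95% counting intervals and the dashed line is the genome mean. Snrpn lies among the other imprinted genes, while the other 6 genes of the region had mean levels between 1.00 and 1.94.

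Over whole gene regions, H3K27me3 divided the 7 genes most. Peg12, a single-exon gene related to the Frat regulators of Wnt signalling, had the highest level with 3.60 (3.37 to 3.85) in Dicer KO and 2.57 (2.35 to 2.81) in Dicer KO/Dnmt1 cKO. It ranked 287 of 22380 genes in Dicer KO and 605 in Dicer KO/Dnmt1 cKO. Magel2, a MAGE-family gene mutated in Schaaf-Yang syndrome, followed with 2.62 (2.44 to 2.82) and 2.01 (1.82 to 2.20). Ndn, which encodes the growth suppressor necdin of the same family, stood at 1.94 (1.77 to 2.12) and 1.73 (1.55 to 1.93). Mkrn3 was at 1.84 (1.68 to 2.02) and 1.75 (1.57 to 1.95), and its intervals overlapped those of Ndn in both genotypes. Atp10a, a lipid-flipping membrane ATPase, was at 1.48 and 1.39. Snrpn, which encodes a protein of the splicing machinery, was below the genome mean at 0.68 in both genotypes. Ube3a was lowest with 0.24 (0.21 to 0.28) and 0.31 (0.27 to 0.35), and only 6.62% of all genes were lower than it in Dicer KO. Above the genome mean were therefore 5 of the 7 genes in both genotypes, against 38.3% of all genes in Dicer KO and 38.0% in Dicer KO/Dnmt1 cKO.

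The H3K9 marks spanned a narrower range. H3K9me3 was highest at Snrpn in Dicer KO, with 1.24 (1.18 to 1.31), and at Atp10a in Dicer KO/Dnmt1 cKO, with 1.18 (1.13 to 1.24). In Dicer KO Snrpn, Atp10a and Peg12 (1.15, 0.99 to 1.32) could not be ordered within their intervals. Ndn and Magel2 lay at 0.76 and 0.73 in Dicer KO and at 0.81 and 0.71 in Dicer KO/Dnmt1 cKO. Ube3a was lowest at 0.52 and 0.53. H3K9me2 was highest at Atp10a, with 1.34 (1.27 to 1.40) and 1.23 (1.18 to 1.29), and again lowest at Ube3a, with 0.56 (0.50 to 0.62) and 0.64 (0.58 to 0.69). The other 5 genes had H3K9me2 levels from 0.78 to 1.08 in both genotypes.

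**Figure D3:**
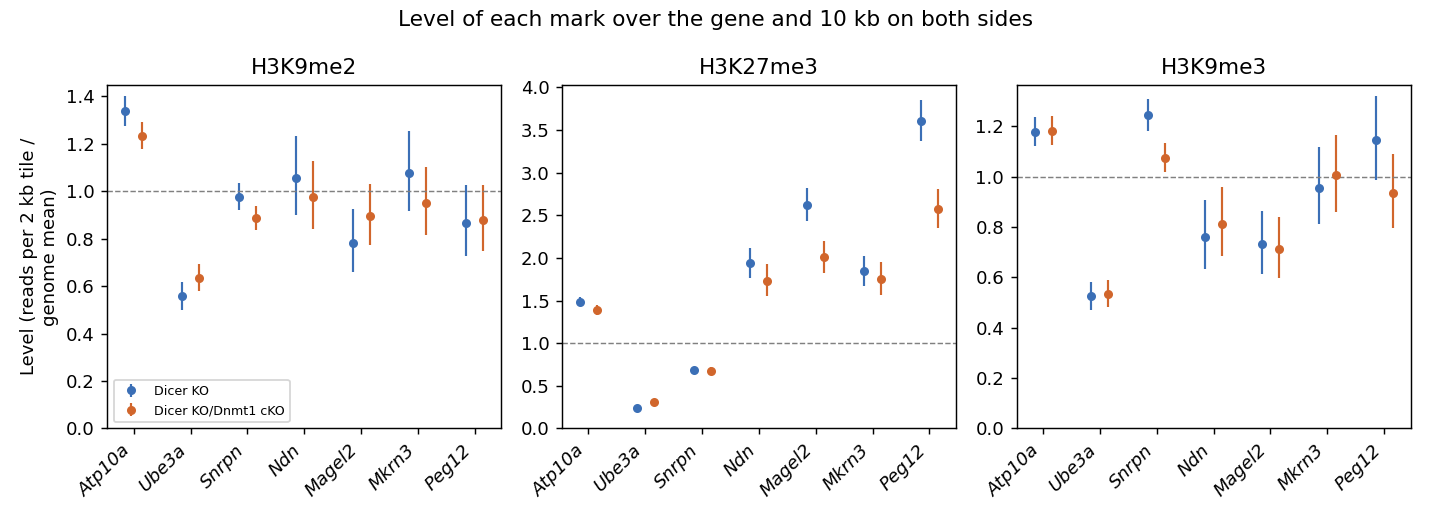
Level of each mark (reads per 2 kb tile relative to the genome mean, y axes, each starting at 0) over each gene with 10 kb on both sides (x axis, in the order of the chromosome), 1 library per mark and genotype. Bars are 95% counting intervals and the dashed line is the genome mean. H3K27me3 ran from 0.24 at Ube3a to 3.60 at Peg12 in Dicer KO, and Ube3a was lowest for all 3 marks.

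Between the genotypes no gene region of the 7 differed 2-fold in any mark. Over all gene regions with at least 200 reads in both libraries together, 0% differed 2-fold in H3K9me2, 0% in H3K27me3 and 0.0631% in H3K9me3 (0 of 19524, 0 of 20059 and 13 of 20602). All 7 genes passed this minimum for every mark. The largest change was that of H3K27me3 at Peg12, which went from 884 reads in Dicer KO to 495 in Dicer KO/Dnmt1 cKO, a change of -0.48 (-0.65 to -0.32). Magel2 went from 751 to 450 reads, a change of -0.39 (-0.56 to -0.22). H3K27me3 at Ndn (476 and 333 reads) and Mkrn3 (452 and 337 reads) changed by -0.16 (-0.37 to 0.04) and -0.07 (-0.28 to 0.14), and these intervals include 0. With 20 kb on both sides the interval of Mkrn3 did not (-0.17, -0.32 to -0.02). The change of Peg12 was lower than that of Mkrn3 by 0.41 on the log2 scale (0.15 to 0.67 lower) and than that of Ndn by 0.32 (0.06 to 0.58 lower). Magel2 was lower than Mkrn3 by 0.32 (0.05 to 0.58 lower), while the interval against Ndn included 0 (-0.22, -0.49 to 0.04). Peg12 and Magel2 differed by less than their counting error (-0.10, -0.33 to 0.13).

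Ube3a went the other way in H3K27me3, with a change of 0.33 (0.07 to 0.59) from 249 to 246 reads in libraries of 27162045 and 21280804 reads. The interval reached 0 without the 10 kb on both sides (0.25, -0.07 to 0.58) and without the tile with most reads (0.26, -0.01 to 0.53). The change of Ube3a minus that of Atp10a was 0.43 (0.16 to 0.69). Atp10a itself changed by -0.09 (-0.17 to -0.01), and by -0.05 (-0.13 to 0.03) with the chromosome 7 total as the scale. Such changes ran with the level of the mark over all genes. In the tenth of genes with most H3K27me3 the median change was -0.15 and the middle 90% lay between -0.45 and 0.09. In the tenth with least it was 0.28, with the middle 90% between -0.06 and 0.59. Magel2 and Ube3a lay within the range of genes of their level. Peg12 at -0.48 lay just below the lower end of -0.45, which its counting interval spans. Over genes of all levels 0.62% had a lower change than Peg12. At the starts of the 6 lineage genes above the median level was 6.01 in Dicer KO and 4.65 in Dicer KO/Dnmt1 cKO, although Gata4 went from 2.81 to 4.27. At the starts of the 6 ESC genes, where the mark was low, the medians were 0.62 and 0.55. The part of this relation in the values at Peg12 and Magel2 was not tested.

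H3K9me3 fell over the Snrpn region as a whole, from 1531 to 1379 reads, a change of -0.21 (-0.32 to -0.11). The part outside the window around the start had a change of similar size, as given above. The change was lower than that of Atp10a, the other long gene with a like level, by 0.22 (0.07 to 0.36 lower). Over genes with the H3K9me3 level of Snrpn the middle 90% of changes lay between -0.25 and 0.25, so that this value is within them. Peg12 had -0.29 (-0.61 to 0.02), and the other 5 genes had values from -0.04 to 0.09. H3K9me2 changed by -0.14 (-0.26 to -0.02) at Snrpn and by -0.11 (-0.21 to -0.02) at Atp10a. In the other 5 genes it lay between -0.18 and 0.20, with intervals that included 0. Summed over the 7 genes the changes were -0.08 (-0.14 to -0.01) for H3K9me2, -0.13 (-0.19 to -0.08) for H3K27me3 and -0.08 (-0.14 to -0.02) for H3K9me3. With the chromosome 7 total as the scale the last was -0.06 (-0.13 to 0.00). These sums weigh the long genes most, and they are not medians over genes. The medians of the 7 genes were -0.11, -0.09 and 0.005, against 0.10, 0.04 and 0.02 over all genes tested. Lower in Dicer KO/Dnmt1 cKO were 4 of the 7 genes in H3K9me2, 6 in H3K27me3 and 3 in H3K9me3. Of the neighbouring genes on the same chromosome, the pigmentation gene Oca2 had an H3K27me3 change of -0.07 (-0.14 to -0.00). Nipa1, a magnesium transporter gene, had -0.12 (-0.29 to 0.05), and Cyfip1, a regulator of actin and translation, had 0.36 (0.14 to 0.57).

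**Figure D4:**
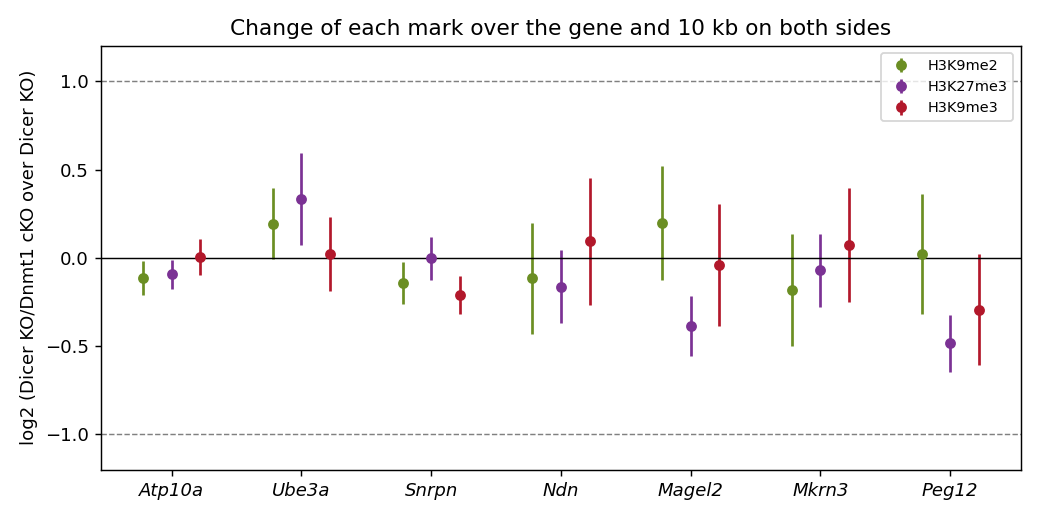
Change of each mark as log2 of Dicer KO/Dnmt1 cKO over Dicer KO (y axis) over each gene with 10 kb on both sides (x axis, in the order of the chromosome), from 1 library per mark and genotype. Bars are 95% counting intervals and dashed lines mark a 2-fold difference. No point reached a dashed line, and the lowest were H3K27me3 at Peg12 (-0.48) and Magel2 (-0.39).

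Raised H3K27me3 was not limited to the genes between Ndn and Peg12. Over these 138 kb (chr7:69482001-69620000) it stood at 2.51 in Dicer KO and 1.99 in Dicer KO/Dnmt1 cKO, from 3537 and 2199 reads, a change of -0.33 (-0.41 to -0.26). In Dicer KO 2 of its 69 tiles stood below the genome mean, and the mark went on beyond the stretch, with 88 and 45 reads at chr7:69626001-69628000 (levels of 4.30 and 2.81). The 19 tiles between the 4 gene regions had the same level in Dicer KO as the 50 tiles within them, 2.51, and changed by -0.39 (-0.54 to -0.24) against -0.31 (-0.40 to -0.22). Of the 69 tiles, 54 were lower in Dicer KO/Dnmt1 cKO and 15 higher. Genome-wide, 50.2% of the tiles with 10 or more reads on average were lower, but these have all levels of the mark. In the tenth of these tiles with most H3K27me3, 59.8% were lower with a median change of -0.09. Of the 69 tiles 32 lay among them, of which 27 were lower with a median of -0.33. The stretch was chosen after its values were seen. It did not change in H3K9me3 (-0.04, -0.18 to 0.10) or H3K9me2 (-0.08, -0.22 to 0.05) beyond the counting error. The 2186 kb between the Snrpn and Ndn regions had an H3K27me3 level of 0.98 in Dicer KO and changed by -0.13 (-0.16 to -0.10). The 542 kb between the Ube3a and Snrpn regions were at 0.42 in both genotypes, with 43 of 271 tiles without reads in any library.

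All 12 tiles of Peg12 and all 14 of Magel2 were lower in H3K27me3 in Dicer KO/Dnmt1 cKO, against 8 of 12 at Ndn and 5 of 12 at Mkrn3. The tile of the Peg12 start (chr7:69608001-69610000, 134 CpG sites) fell most of the stretch, from 118 to 37 reads, a change of -1.32 (-1.90 to -0.78). The next tile into the gene held 102 and 76 reads. At Magel2 the tile with most H3K27me3 (chr7:69522001-69524000) held 120 and 85 reads, a change of -0.15 (-0.56 to 0.27), and the tile of the start before it 86 and 46 reads (-0.55, -1.10 to -0.02). The start tile of Mkrn3 (chr7:69564001-69566000) was a gap in the mark, with 13 and 15 reads. The start tiles of Peg12 and Mkrn3 thus held the most and the fewest H3K27me3 reads of the 4 genes in Dicer KO, and the 150 bases before each start are given for this contrast, each on the minus strand, with CpG sites in capitals.
Peg12: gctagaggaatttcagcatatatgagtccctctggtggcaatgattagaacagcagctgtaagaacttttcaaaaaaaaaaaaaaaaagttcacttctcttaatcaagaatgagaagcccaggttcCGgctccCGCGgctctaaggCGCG
Mkrn3: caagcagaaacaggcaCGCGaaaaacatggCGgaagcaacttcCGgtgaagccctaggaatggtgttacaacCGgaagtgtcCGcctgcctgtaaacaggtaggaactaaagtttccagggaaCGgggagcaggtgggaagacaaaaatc
The Peg12 sequence (chr7:69609397-69609546) held 5 CpG sites and the Mkrn3 sequence (chr7:69565040-69565189) 7, against a median of 6 over 22380 protein-coding genes. Neither held the hexamer TGCCGC, which 7.08% of these promoter windows held. The same window held 4 CpG sites at Ndn and 6 at Magel2. Over the whole start tile Peg12 had 134 CpG sites and Mkrn3 77. Whether CpG content bears on the level of the mark was not tested.

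**Figure D5:**
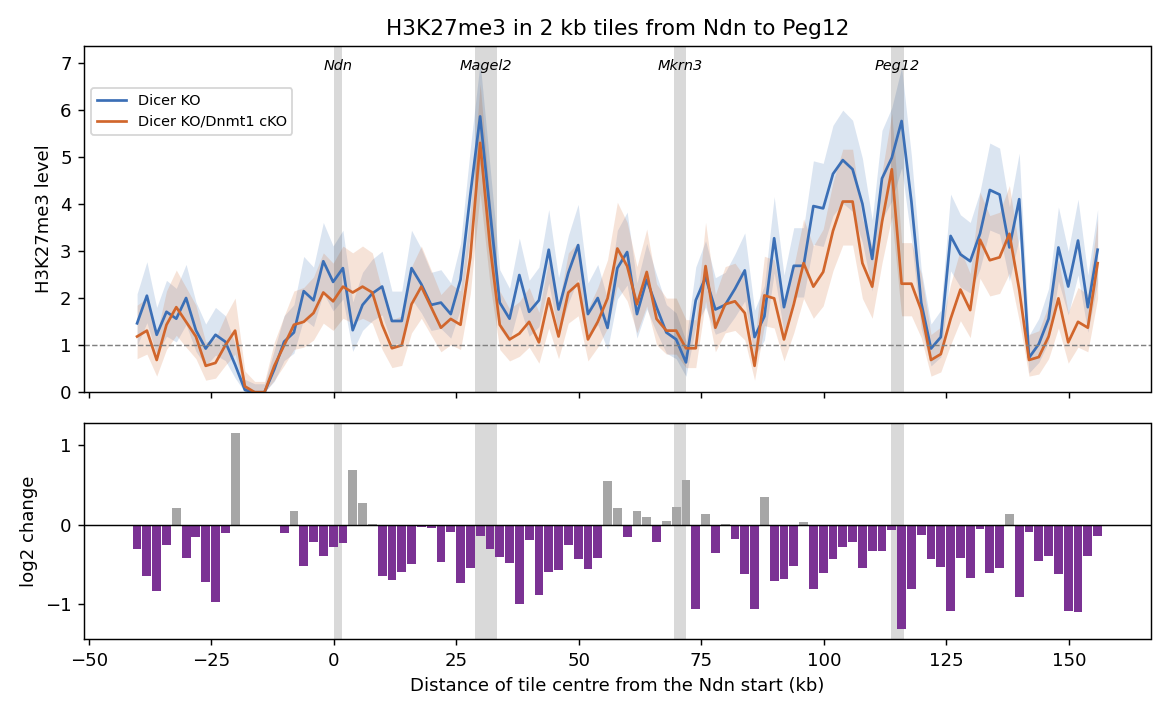
H3K27me3 level (reads relative to the genome mean, upper y axis) and its log2 change of Dicer KO/Dnmt1 cKO over Dicer KO (lower y axis) in 2 kb tiles against the distance from the Ndn start in kb (x axis), 1 library per genotype. Shading is the 95% counting interval, grey bands are the 4 genes and the dashed line is the genome mean. Changes are drawn for tiles with 10 or more reads on average, purple when lower and grey when higher. The Magel2 and Peg12 summits stand out, and 54 of the 69 tiles from the Ndn to the Peg12 region were lower in Dicer KO/Dnmt1 cKO.

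The start tiles of the longer genes differed as well. Atp10a had H3K27me3 at its start, with 75 and 39 reads in the start tile (-0.59, -1.19 to -0.01) and 104 and 60 reads in the next (-0.44, -0.92 to 0.03). The start tile of Ube3a, with 129 CpG sites, held 2 and 4 reads of H3K27me3, 2 and 3 of H3K9me2 and 3 and 1 of H3K9me3. Few reads of any of the 3 marks were thus counted there. Without an input library, low recovery of the tile cannot be told apart from absence of the marks. The outer Snrpn start, at the far end of the gene, held 12 and 7 reads of H3K27me3 and 13 and 16 of H3K9me3, so that the H3K9me3 summit belonged to the inner start.

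Single tiles with a 2-fold difference were counted among those with 10 or more reads on average. In H3K9me2 they were 22 of 219 tiles of the 7 genes, or 10.0%, against 7.03% of all such tiles. In H3K27me3 they were 14 of 213, or 6.57%, against 5.99%. In H3K9me3 they were 23 of 214, or 10.7%, against 7.48%. In H3K9me2 15 of the 22 were lower and in H3K9me3 14 of the 23 were higher. H3K27me3 had 7 in each direction. The tiles of a gene share its libraries and neighbours and are not replicates.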

How the data were processed

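H3K9me2, H3K27me3 and H3K9me3 ChIP-seq was available for Dicer KO and Dicer KO/Dnmt1 cKO ESCs, 1 library each. Reads were trimmed with Trim Galore and mapped with Bowtie2 to NCBIM37 by the authors, who discarded those with a mapping quality under 20. The authors deposited log2 observed over expected reads in 2 kb tiles, whereas the methods state 1 kb. Removal of duplicates is not given for ChIP-seq in the sources used here. Of 25 columns of values, 6 matched the labels. The other 19 were not used, and an input library was not used here. Whole reads were recovered, because antilogs lay within 0.1 read of whole multiples of a step that each library has, with 1 exception among all values. Tiles without reads, listed at 0.9 step, were set to 0.

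Values were computed in Python 3.11.15 using pandas 2.3.3, scipy 1.17.1 and numpy 2.4.6, and drawn with matplotlib 3.10.9. Gene bounds and sequences came from the GENCODE annotation and genome of NCBIM37, whose 22 chromosome lengths matched the tiles. Intervals of changes were exact conditional binomial, those of levels exact Poisson and those of differences between changes a normal approximation. Intervals were tested on simulated data. Gene regions needed 200 reads over both genotypes and single tiles a mean of 10.

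All 7 genes of the region were named, with fixed lists of neighbours, other imprinted genes and cell type markers, of which Snurf, Ipw, Snhg14, Kcnq1ot1 and Peg13 were not used here. Not every neighbour is reported here. Members and lists were chosen with earlier results of these data known. Alternatives were other scalings, region widths, read minimums, choices of the Snrpn tile and a correction for GC content.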

Additional observations from a re-analysis of the deposited data

How the results depend on the processing

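No paired analysis was possible because there was only 1 library of a mark in each genotype, and so no replicate could be left out either. For single genes, 168 values were recomputed under other scalings, widths and corrections. Of these 165 moved by less than their counting interval and 3 moved further. Changes whose main interval excluded 0 kept their sign. Some with intervals that included 0 changed sign, among them H3K27me3 at Mkrn3 (main value -0.07) and H3K9me3 at Ndn (main value 0.09). Without the 10 kb on both sides, H3K9me2 at Magel2 was 0.56, H3K27me3 at Mkrn3 0.35 and H3K9me3 at Ndn -0.74, each from the 1 or few tiles of the gene. With 20 kb on both sides the interval of H3K9me2 at Mkrn3 no longer included 0 (-0.27, -0.51 to -0.04). Nor did that of H3K9me3 at Peg12 over tiles wholly inside the region (-0.37, -0.74 to -0.01). At the Snrpn tile, H3K9me3 changed by -0.28 (-0.63 to 0.06) when the tile on either side was added. It was -0.79 to -0.89 under other scalings and a GC correction. The change from Ndn to Peg12 in H3K27me3 lay between -0.34 and -0.29 under alternatives that were chosen after seeing the data.

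For the 7 genes together, levels relative to the median tile of the autosomes were 0.93 for H3K9me2 in Dicer KO/Dnmt1 cKO, 1.29 and 1.16 for H3K27me3 in Dicer KO and Dicer KO/Dnmt1 cKO, and 1.09 for H3K9me3 in Dicer KO. Without the 10 kb on both sides they were 1.05 and 0.98 for H3K27me3 and 1.07 for H3K9me3 in Dicer KO. With 20 kb they were 1.25 and 1.12 for H3K27me3. With no minimum of reads and a pseudocount of 1 read, 72, 51 and 60 gene regions differed 2-fold in H3K9me2, H3K27me3 and H3K9me3. Depth limits single tiles most, since a tile with 13 reads has a wide counting interval, and spread between cultures or clones cannot be told apart from the genotype.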
